A study of Homo sapiens with 8 samples.

Results

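Peaks in protein-coding genes were taken from aldehyde-reactive probe (ARP) sequencing of the human embryonic kidney line HEK-293. A peak was counted when it lay on a nuclear chromosome and overlapped, on the same strand, a protein-coding gene of GENCODE release 44. Peaks that also overlapped a tRNA gene or a gene of type snRNA, snoRNA, scaRNA, misc_RNA, miRNA, vault RNA or rRNA were left out. This gave 265 of 4746 peaks, which merged into 103 of 1373 regions in 100 genes or gene pairs. A further 362 peaks in protein-coding genes were left out for a small RNA gene and 80 for a tRNA gene.

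The groups were wild-type (WT) input, WT pulldown (IP), ALKBH1 knockout (KO) input and KO IP, with 2 libraries each. Fragmented total RNA of all groups was treated with ARP, which carries biotin, and the IP was the fraction bound by streptavidin. The KO cells, for which the study's methods name HEK293T, were grown from single sorted cells after Cas9 editing, and both genotypes had the same ARP treatment. Whether both KO libraries came from 1 clone was not given in the sources used here. A difference between WT and KO therefore cannot be told apart from other differences between the lines. No region lay in ALKBH1, so these peaks did not check the knockout, and none lay in the 12 marker genes listed for HEK-293 or the 10 listed for other cells. The study's results speak of 2 biological replicates for this sequencing, and the edgeR p-values below set differences against the spread between libraries.

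The value of a peak was its number of unique cDNA molecules, and no peak under 10 was listed. Summed over both lists of a library, the peak counts lay between 48380 in WT IP replicate 2 and 285539 in KO input replicate 2. Values are given as CPM, the count divided by that sum and scaled to 1e+06. A peak of 10 counts was worth 35.0 CPM in KO input replicate 2 and 207 CPM in WT IP replicate 2, so low peaks were listed more easily in the KO inputs. An interval or limit printed here covers counting error only.

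5-formylcytidine carries an aldehyde that ARP can bind. ALKBH1 is a dioxygenase that oxidizes 5-methylcytidine, and its best known product is the formylated wobble cytidine of mitochondrial methionine tRNA. In the libraries used here, reverse transcription starts at a ligated linker and the 5′ end of a cDNA marks where it stopped, so a peak lies at the 5′ end of the reads and the reads run downstream of it. A messenger RNA is made of a 5′ untranslated region (UTR), a coding sequence (CDS) and a 3′ UTR, and introns are removed by splicing. Genes also hold copies of other sequences, such as runs of A and stretches like tRNA or mitochondrial DNA.

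Of the 103 regions, 79 were intronic, 18 lay in CDS, 3 in 3′ UTRs and 3 in 5′ UTRs. Introns make up 93.7% of the bases of protein-coding genes, CDS 2.65% and UTRs 3.67%. The letters around each region, from 5 nt upstream to 30 nt downstream on the strand of the peak, were compared with known sequences. In 63 regions these letters held an exact match or the region overlapped a small RNA gene that RefSeq has and the GENCODE types above do not. The lengths that counted as a match were chosen after some sequences had been seen, so the matches are a description.

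The first set is shown because it holds the region most particular to the WT IPs. It consists of 9 regions with at least 14 nt of a mitochondrial tRNA, taken with the CCA that is added to its 3′ end. Such a match was found in 0.00570% of 35116 promoter windows of 45 nt, the median length searched. It was found in 4.48% of the 714 other nuclear regions of the genome lists. Capitals mark the match, and the 3′ end of the tRNA is shown after the region, with its added CCA in lower case.
SGPL1 intron, chr10:70817633-70817662, plus strand: cctCCCTTCCCGTACTACCAgagcagtttt
MT-TM, methionine tRNA, chrM:4450-4469, plus strand: GTTATACCCTTCCCGTACTAcca
DGKI intron, chr7:137763127-137763156, minus strand: tccTTTGCAGTCCTTACCAtaccacttgag
MT-TA, alanine tRNA, chrM:5587-5606, minus strand: GTGGGGTTTTGCAGTCCTTAcca
GSX2 5′ UTR, chr4:54100307-54100336, plus strand: cgaaCTGCCGGGGCTTCCAgccacccaccc
MT-TC, cysteine tRNA, chrM:5761-5780, minus strand: CTTCAAACCTGCCGGGGCTTcca
HDAC9 intron, chr7:18466898-18466927, plus strand: aatctCCTTATTTCTACCAtttataatttc
MT-TI, isoleucine tRNA, chrM:4312-4331, plus strand: CTTAAACCCCCTTATTTCTAcca
All coordinates are of GRCh38. In SGPL1 the match to mitochondrial methionine tRNA was 17 nt long and ran into the CCA, and the matches in DGKI, GSX2 and HDAC9 ran into it as well. So did the match in an intron of PEAK1 (19 nt of MT-TG, glycine tRNA), which is not shown. The other regions of the set matched inside a tRNA. They were an intron of KIAA0825 (69 nt of MT-TE, glutamate tRNA), an intron of AKAP6 (51 nt of MT-TC) and 2 introns of JAK2 (24 nt of MT-TM and 20 nt of MT-TD, aspartate tRNA).

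The second set is shown because it held most of the counts of the inputs. It consists of 12 regions with at least 12 nt, on either strand, of the linker ligated to the RNA, the constant part of the iCLIP reverse transcription primer or the Illumina read 1 adaptor. The linker is stated in the study's methods and the other sequences are standard ones. These matches were found in 0.0171% of promoter windows and 2.38% of the other regions.
NUTF2 intron, chr16:67863442-67863471, plus strand: gcgttctCACTCTTTCCCTACACGAttcct
DSC2 intron, chr18:31099209-31099238, minus strand: tggaATCTACACTCTTTCCCTAgggcattt
ENSG00000289809 intron, chr3:12868720-12868749, plus strand: ggaCCCTACACGACGCctctccccctgtgc
ITGB4 intron, chr17:75730165-75730194, plus strand: cccgtCCTACACGACGCcgtgatgcgtgtc
RYR3 intron, chr15:33553050-33553079, plus strand: gataGCGGTTCAGGATCtgtgtggtggcat
NUTF2, DSC2, ENSG00000289809 and ITGB4 matched the read 1 adaptor, with 18, 18, 13 and 12 nt, and RYR3 matched 13 nt of the primer. TCTTTCCC, one of the letter strings of the read 1 adaptor, was present in 4.85% of the regions, 1.12% of the other regions and 0.111% of promoter windows.

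The third set consists of 5 regions with at least 14 nt of a cytosolic tRNA with its CCA, found in 0.222% of promoter windows. In contrast, 31.8% of the other regions of the genome lists held such a match, since those lists include tRNA genes. In 3 of the 5, the match ran through the CCA at the end of an alanine tRNA.
RBFOX3 intron, chr17:79112336-79112365, minus strand: ctttCCCGACACCTCCACCAcccaggtggg
TBC1D22A intron, chr22:46792899-46792928, plus strand: tccttCCCGCATTCTCCACCAgctgctgga
VPS13D CDS, chr1:12304656-12304685, plus strand: gtgCCCAGTACCTCCACCAagcagcaaggg
Runs of at least 15 A were found in 26 regions (25.2%), all intronic, against 18.1% of the other regions and 0.00285% of promoter windows. The promoter windows were not chosen to resemble introns. The C12orf40 intron is the one with the most counts, with a run of 38 A.
C12orf40 intron, chr12:39696540-39696569, plus strand: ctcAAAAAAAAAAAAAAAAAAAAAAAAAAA
A run of T was assigned to 2 regions, and at least 18 nt of a Y RNA to 4, with RNY4 in MSN, WIPF2 and TBC1D31 and RNY3 in KLHL13. Y RNAs are small cytoplasmic RNAs bound by the Ro protein. A further 5 regions overlapped snoRNA genes of RefSeq, among them SNORD59B in ATP5F1B, SNORD50A in ENSG00000271793, SNORD119 in SNRPB and SNORD144 in SEC31A. snoRNAs of this kind guide methylation of ribosomal RNA and are cut out of introns of their host genes.

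The remaining 40 regions held none of these matches. Of them, 15 lay in CDS, 2 in 3′ UTRs, 2 in 5′ UTRs and 21 in introns. The UTR regions with the most counts are shown because they had higher values in the IPs than in the inputs of each genotype, as given below. Each stretch starts at the median 5′ end of the listed peaks and stops at 30 nt or at the end of the gene.
CDC42BPB 3′ UTR, chr14:102932380-102932408, minus strand: ataaagcagaagacggcagttttaaagtt
EIF4H 3′ UTR, chr7:74195952-74195981, plus strand: actgtccaagcagataggctcacacgagaa
NUDC 5′ UTR, chr1:26921753-26921782, plus strand: gacgactagagtcgttgggcccggcgcgac
The CDC42BPB region ended 26 nt before the end of its gene.

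**Figure D1:**
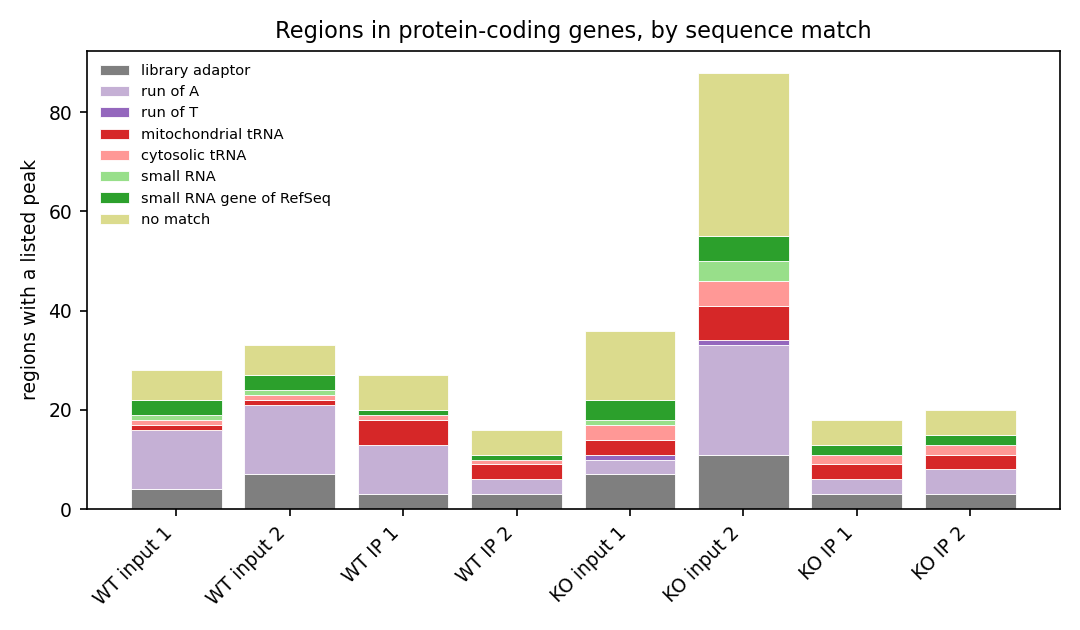
Number of regions in protein-coding genes with a listed peak (vertical axis) in each of the 8 libraries, stacked by sequence match; WT and KO are the genotypes and IP is the pulldown. KO input 2 stands out with 88 regions, 33 of them with no match, against 16 to 36 in the other libraries.

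The libraries shared few of the regions. WT inputs listed 28 and 33 of them, WT IPs 27 and 16, KO inputs 36 and 88, and KO IPs 18 and 20. Both libraries of a group listed 23 of 38 regions in WT input (60.5%), 15 of 28 in WT IP (53.6%), 33 of 91 in KO input (36.3%) and 15 of 23 in KO IP (65.2%). A single library listed 46 of the 103 regions, and for 34 of these it was KO input replicate 2, the library with the largest sum. Only 7 of the 103 regions had a peak in all 8 libraries, and of all 1373 regions of both lists 186 did.

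Of 18 CDS regions, 12 were listed in KO input replicate 2 alone, with 10 to 17 counts. Only VPS13D, BCOR and GAPDH had a CDS peak in an IP, each in a single IP library. The genes included 6 cytosolic ribosomal protein genes of 88 (among them RPL11, RPL4, RPL35 and RPS4X), which encode parts of the ribosome. None of these 6 had a peak in an IP, while 5 had one in KO input replicate 2, 1 in KO input replicate 1 and 1 in WT input replicate 1. Single regions lay in H1-4, a linker histone, in CCT3, a subunit of the TRiC chaperonin, in NPM1, a nucleolar chaperone, and in GAPDH, a glycolytic enzyme. The first 3 were listed in KO input replicate 2 alone, with 11, 10 and 11 counts. GAPDH was listed in KO IP replicate 1 alone, with 14 counts. Of 27 translation factor genes 1 had a region (EIF4H), of 180 nuclear genes whose products act in mitochondria 1 (ATP5F1B), and of 17 genes for writers, erasers and readers of 5-methylcytidine none. With a listing minimum of 10, a missing peak does not show that a transcript was missing. The 3 CDS regions with the highest mean over the 8 libraries were VPS13D (75.3 CPM), GAPDH (32.8 CPM) and SCN8A (23.2 CPM), of which VPS13D matched an alanine tRNA and SCN8A the linker.

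Peak width differed between the compartments, with a region counted once for each library that listed it. Peaks in CDS had a median width of 69 nt (21 peaks, 2 to 197 nt), and 15 of them were over 30 nt wide. KO input replicate 2 gave 15 of the 21. Peaks in 5′ UTRs had a median of 68 nt (11 peaks) and those in 3′ UTRs 23 nt (16 peaks). NUDC gave 7 of the 11, and CDC42BPB and EIF4H gave 7 and 8 of the 16, so the UTR medians describe few regions. Intronic peaks had a median of 6 nt (217 peaks, 2 to 162 nt), and 102 of them were at most 5 nt wide while 29 were over 30 nt. By match, none of the 16 peaks of the cytosolic tRNA set was over 4 nt, the 41 adaptor peaks had a median of 3 nt and the 72 peaks at runs of A one of 8 nt. The 81 peaks without a match were narrow as well, with a median of 6 nt. Peaks at RefSeq snoRNA genes were wide, with a median of 44 nt. The other 2557 peaks of the genome lists had a median of 33 nt.

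**Figure D2:**
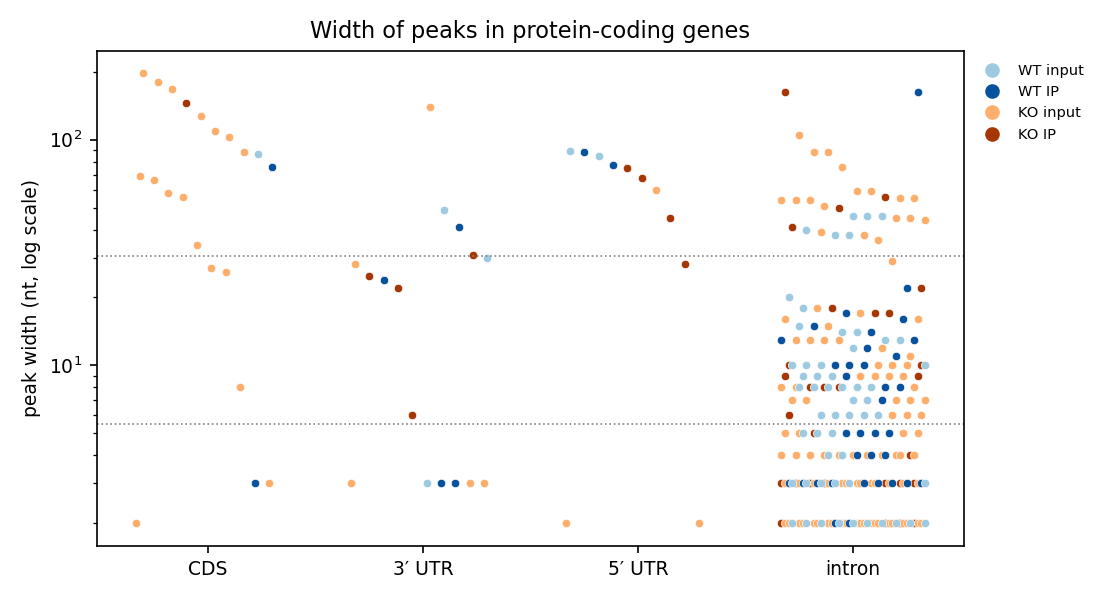
Width of each of the 265 peaks in protein-coding genes (vertical axis, nt, log scale) by compartment, coloured by group; dotted lines separate the classes of at most 5 nt, 6 to 30 nt and over 30 nt, and points are spread sideways for visibility. Most CDS peaks lie above the upper line (15 of 21), and 102 of 217 intronic peaks lie below the lower one.

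Peaks in protein-coding genes, the adaptor set included, held a smaller share of all peak counts after the pulldown. The share was 2.76% (95% interval by Wilson's method 2.66 to 2.87) and 3.0% (2.89 to 3.11) for WT input, and it was 1.24% (1.16 to 1.33) and 1.04% (0.951 to 1.13) for WT IP. In KO cells it was 1.99% (1.93 to 2.06) and 2.50% (2.44 to 2.56) for the inputs, against 1.00% (0.921 to 1.09) and 1.19% (1.10 to 1.28) for the IPs. Inputs and IPs did not overlap in either genotype. Without the adaptor set they did: the share was then 0.831% and 0.757% for WT input against 1.05% and 0.771% for WT IP, and 0.633% and 1.08% for KO input against 0.719% and 0.819% for KO IP. With the adaptor set included, the 2 IP groups overlapped (1.14% ± 0.146 in WT and 1.09% ± 0.131 in KO, SD, n = 2). With 2 libraries against 2 the smallest two-sided p of an exact permutation test is 0.33, so no difference between shares could pass a threshold. Of 28 such tests, none had an adjusted p below 0.406.

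Within these counts, UTRs held a higher share after the pulldown and introns a lower one. The 3′ UTR share went from 0.500% and 1.09% for WT input to 9.83% and 13.5% for WT IP, and from 1.60% and 2.87% for KO input to 14.4% and 18.4% for KO IP. The 5′ UTR share went from 0.423% and 0.340% for WT input to 1.97% and 1.99% for WT IP, and from 1.29% and 0.980% for KO input to 5.98% and 5.17% for KO IP. IPs lay above inputs in both genotypes for both classes, and KO lay above WT in both fractions (exact permutation p = 0.33 in each case). Introns held 98.6% ± 0.0862 of the counts in the WT inputs (SD, n = 2), 94.7% ± 2.49 in the KO inputs, 83.7% ± 4.6 in the WT IPs and 76.7% ± 0.421 in the KO IPs. CDS held between 0 and 3.98% in any library, with ranges that overlapped between IP and input in KO. The UTR counts were also higher as CPM. For 3′ UTRs they were 138 and 326 CPM for WT input against 1223 and 1406 CPM for WT IP, and 319 and 718 CPM for KO input against 1441 and 2187 CPM for KO IP. For 5′ UTRs they were 117 and 102 CPM for WT input against 245 and 207 CPM for WT IP, and 257 and 245 CPM for KO input against 599 and 614 CPM for KO IP. The UTR values rested on few regions: in the IPs the 3′ UTR counts were those of CDC42BPB and EIF4H. In the KO inputs, 206 and 245 CPM of the 5′ UTR values were those of GSX2, which matches a mitochondrial tRNA and had no IP peak. The rest was NUDC, with 51.4 CPM in KO input replicate 1 and no peak in replicate 2, against 117 and 102 CPM in the WT inputs. For 5′ UTRs, the KO inputs thus lay above the WT inputs through GSX2.

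In WT cells the share in peaks of at most 5 nt was higher after the pulldown. In KO cells its direction depended on how 1 region was counted. It was 26.2% and 27.5% for WT input and 45.7% and 53.8% for WT IP, while KO input had 38.2% and 37.8% and KO IP 26.5% and 27.1%. The CDC42BPB peak was 3 nt wide in the WT IPs and in every input that listed it, and 31 and 6 nt wide in the KO IPs. Counted as narrow in every library, it moved the KO IPs to 37.9% and 41.5%, which overlap the KO inputs, and left out, it gave 29.96% and 31.7% for KO IP against 37.8% and 36.8% for KO input. The difference between the genotypes was not tested. Without the SGPL1 region the mean of the WT IPs was 39.3% instead of 49.7%.

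**Figure D3:**
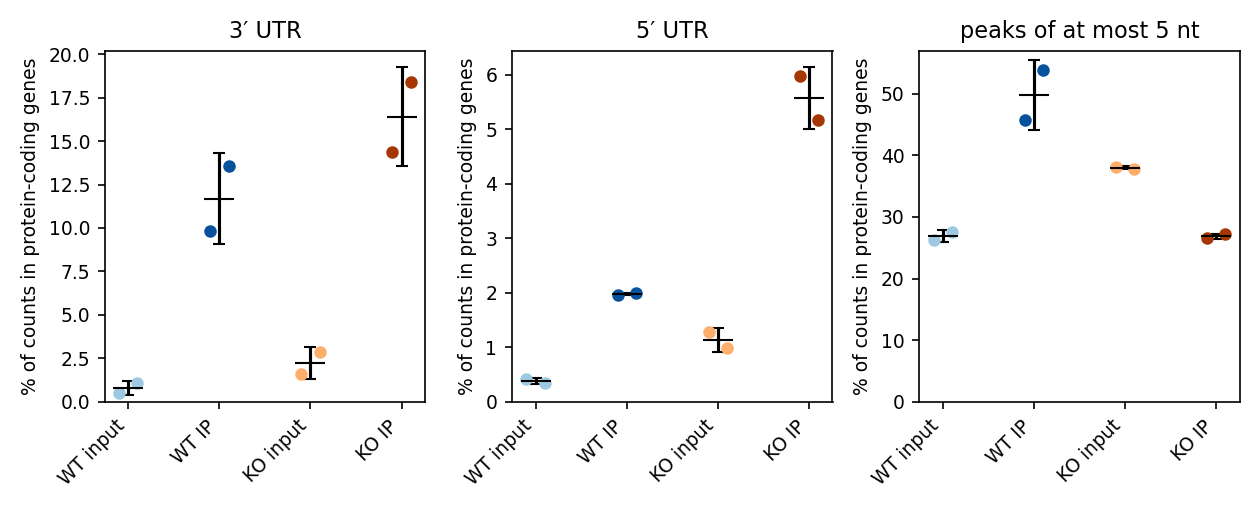
Share of the counts in protein-coding genes (vertical axes, %, each starting at 0) that lay in 3′ UTRs, in 5′ UTRs and in peaks of at most 5 nt; points are libraries, bars the mean ± SD of 2. The UTR shares of the IPs lie above those of the inputs in both genotypes, and the share in narrow peaks is highest in the WT IPs (45.7% and 53.8%).

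By sequence match, the adaptor set held 72.3% ± 3.44 of the counts in protein-coding genes in the WT inputs (SD, n = 2) and 62.6% ± 8.0 in the KO inputs. In the IPs it held 20.7% ± 7.05 in WT and 29.6% ± 1.98 in KO. NUTF2 alone gave between 36.9% and 54.7% in the 4 inputs and was also the largest region of both KO IPs. In the WT IPs the largest regions were C12orf40 in replicate 1 (17.3%, Wilson 95% interval 14.9 to 20.1) and SGPL1 in replicate 2 (19.5%, 16.3 to 23.2). The mitochondrial tRNA set summed to 2857 ± 327 CPM in the WT IPs, 471 ± 190 CPM in the WT inputs, 1066 ± 380 CPM for KO input and 1212 ± 113 CPM for KO IP. Without SGPL1 the WT IPs summed to 896 ± 419 CPM. The regions without a match held 3.11% ± 0.0640 of the counts for WT input and 20.5% ± 1.72 for WT IP, which were 870.3 and 918 CPM against 2400.1 and 2253 CPM. In KO cells their share was 11.6% ± 1.90 for input and 24.4% ± 2.02 for IP, while their values overlapped, with 2036 and 3225 CPM for input and 2303 and 3069 CPM for IP.

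Regions entered a comparison if all of its libraries listed a peak, and those in protein-coding genes were fitted with the rest of both lists (two-sided quasi-likelihood test of edgeR, with p adjusted by Benjamini-Hochberg over all regions tested). The pulldown of WT cells answers which RNA was retained by streptavidin. Of 243 regions tested, 48.1% passed an adjusted p of 0.05, and of the 10 in protein-coding genes 3 did, all lower in the IP. Input and IP of a number were taken to come from 1 ARP-treated RNA sample. With this pairing (the replicate block) 6 of the 10 passed, the same 3 lower and EIF4H, CSMD1 and NUDC higher. Over all regions 136 of 243 passed with the block. Without the block, the median log2 fold change of the 10 was -0.40, against -0.17 over all regions tested. In KO cells, 56.5% of 246 regions passed, and of 11 in protein-coding genes 5 did, 3 higher and 2 lower in the IP. With the replicate block 6 of the 11 did, with EIF4H added, and 142 of 246 over all regions. Without the block, the median of the 11 was 0.20, against 0.04 over all regions. Only regions listed in all 4 libraries enter such a comparison, which leaves out a region lost entirely in 1 group.

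The adaptor-matching regions that could be tested were lower in the IPs. NUTF2 encodes a nuclear import factor for Ran, and its intronic region had 14095 and 16393 CPM in the WT inputs and 1131 and 1778 CPM in the WT IPs. In KO cells it had 9496 and 9218 CPM in the inputs and 2059 and 2935 CPM in the IPs. The log2 fold change was -3.46 ± 0.28 (SE) in WT (edgeR adjusted p = 0.00147) and -2.0 ± 0.20 in KO (adjusted p = 0.000397), and every IP lay below every input. DSC2 encodes a desmosomal cadherin, and its region had 2898 and 3060 CPM in the WT inputs, 489 and 455 CPM in the WT IPs, 2123 and 2423 CPM in the KO inputs and 543 and 537 CPM in the KO IPs. It was lower in the IPs by edgeR in WT (log2 -2.72 ± 0.18, adjusted p = 0.000999) and in KO (log2 -2.17 ± 0.19, adjusted p = 0.000279). The region in ENSG00000289809 had 2102 and 2285 CPM in the WT inputs and 336 and 434 CPM in the WT IPs (log2 -2.58 ± 0.24, edgeR adjusted p = 0.00172). In KO cells it had 1625 and 1674 CPM in the inputs and 211 CPM in IP replicate 2, and no peak in IP replicate 1.

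The 3′ UTR of CDC42BPB, a kinase downstream of CDC42, was higher in the IPs. No peak was listed in WT input replicate 1 and 153 CPM in replicate 2, against 963 and 951 CPM in the WT IPs. The KO inputs had 129 and 382 CPM and the KO IPs 1142 and 1707 CPM. Every IP lay above every input, by 2.36 ± 0.46 on the log2 scale in KO cells (edgeR adjusted p = 0.00549; without KO IP replicate 1, 2.71 and adjusted p = 0.0555). In WT cells, where the missing peak kept it out of the test, setting the missing library to 1 below the lowest listed value gave a log2 difference of 2.79 ± 0.40 (edgeR adjusted p = 0.00582), and setting it to 0 gave 3.59 ± 1.86 (adjusted p = 0.221). WT and KO IPs did not differ past the threshold (log2 -0.32 ± 0.31, edgeR adjusted p = 0.493).

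EIF4H, a factor that assists the helicase eIF4A in translation initiation, had a 3′ UTR region of 156 nt with a peak in all 8 libraries. Its values were 138 and 173 CPM in the WT inputs, 259.9 and 455 CPM in the WT IPs, 190.2 and 277 CPM in the KO inputs and 299.5 and 479.5 CPM in the KO IPs. IPs lay above inputs in both genotypes, without passing the test that ignored the pairing (log2 1.10 ± 0.41, edgeR adjusted p = 0.0937 in WT, and 0.63 ± 0.30, adjusted p = 0.122 in KO). With the replicate block EIF4H was 1.11 ± 0.26 higher in WT (edgeR adjusted p = 0.0252) and 0.64 ± 0.20 higher in KO (adjusted p = 0.0413). NUDC, a protein of the dynein pathway, had a 5′ UTR region with 117 and 102 CPM in the WT inputs and 245 and 207 CPM in the WT IPs (log2 0.97 ± 0.30, edgeR adjusted p = 0.0582, and 0.0394 with the replicate block). In KO cells 51.4 CPM was listed in input replicate 1 and none in replicate 2, against 374 and 384 CPM in the IPs. With the missing value set to 1 below the lowest listed one the KO difference was 2.93 ± 0.26 on the log2 scale (edgeR adjusted p = 0.00269), and with it at 0 the adjusted p was 0.163. WT and KO IPs did not differ past the threshold for NUDC (log2 -0.48 ± 0.33, edgeR adjusted p = 0.326).

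Other regions higher in the KO IPs carried a run of A or tRNA letters. CSMD1, a large gene of a complement regulator, had an intronic run of A with 117 and 112 CPM in the WT inputs, 199 and 372 CPM in the WT IPs, 87.4 and 112 CPM in the KO inputs and 206 and 249 CPM in the KO IPs. It passed in KO (log2 1.08 ± 0.27, edgeR adjusted p = 0.0148) and not in WT (1.21 ± 0.44, adjusted p = 0.0902, and 0.0426 with the replicate block). Without KO IP replicate 1, KO IP replicate 2 or KO input replicate 1 the KO difference was 1.30, 0.77 or 0.89 (edgeR adjusted p = 0.0720, 0.267 and 0.107), and DESeq2 gave an adjusted p of 0.372. TBC1D22A had no peak in the WT inputs, 428 CPM in WT IP replicate 1 and none in replicate 2, 314 and 368 CPM in the KO inputs and 562 and 652 CPM in the KO IPs. Its KO difference was 0.74 ± 0.21 on the log2 scale (edgeR adjusted p = 0.0214). Without KO IP replicate 2, KO input replicate 1 or KO input replicate 2 it was 0.45, 0.59 or 0.76 (edgeR adjusted p = 0.260, 0.152 and 0.0569), and DESeq2 gave an adjusted p of 0.298.

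The other regions listed in all 8 libraries did not pass in either pulldown. KIAA0825, the longest match to a mitochondrial tRNA, had 605 and 337 CPM in the WT inputs, 321 and 310.0 CPM in the WT IPs, 529.6 and 795 CPM in the KO inputs and 786 and 614 CPM in the KO IPs. ATP5F1B, a subunit of the mitochondrial ATP synthase that hosts SNORD59B, ranged from 230.2 to 357 CPM over the 8 libraries. C12orf40 had 2632 and 1785 CPM in the WT inputs, 2156 and 1468 CPM in the WT IPs, 355 and 974 CPM in the KO inputs and 1086 and 882 CPM in the KO IPs.

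**Figure D4:**
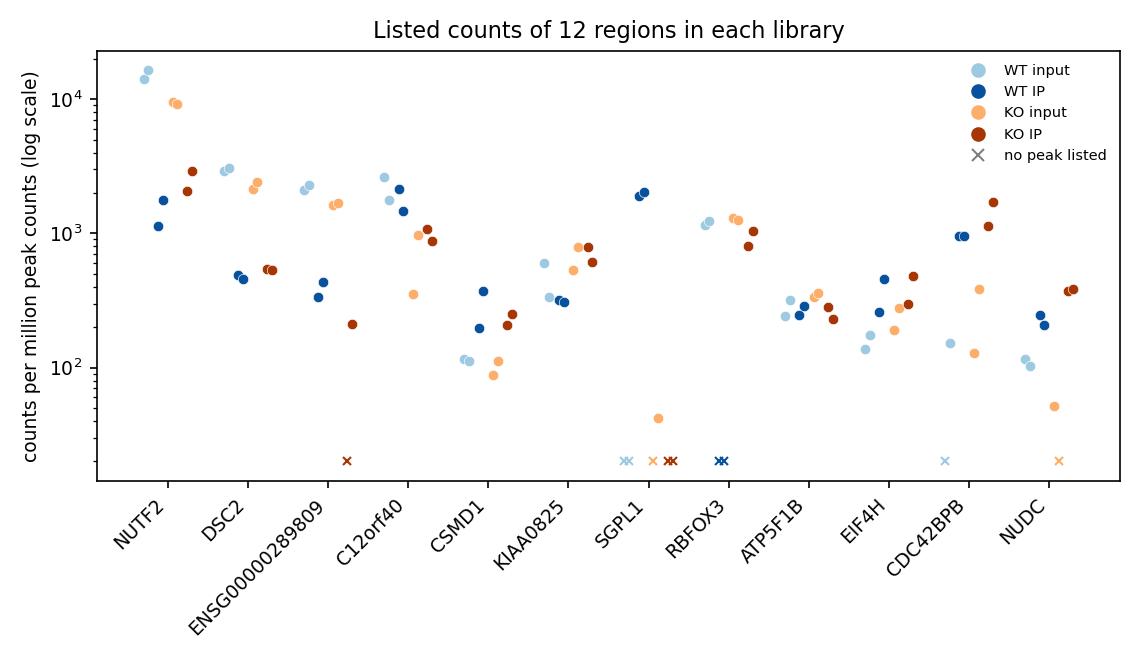
CPM (vertical axis, log scale) of 12 regions named in the text, with 1 point per library coloured by group; a cross marks a library with no listed peak and has no height. The adaptor-matching regions (NUTF2, DSC2, ENSG00000289809) are lower in the IPs, CDC42BPB is higher, and SGPL1 has high points in the WT IPs alone.

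The comparison of the IPs of both genotypes asks which retained RNA differed between WT and KO cells. Of 220 regions 37.3% passed, and of 10 in protein-coding genes 1 did. This was C12orf40, 1.14 ± 0.32 higher in WT on the log2 scale (edgeR adjusted p = 0.0217). It was also 1.78 ± 0.50 higher in the WT inputs than in the KO inputs (edgeR adjusted p = 0.0532), and its interaction was -0.44 ± 0.62 (adjusted p = 0.625). Without KO IP replicate 1, KO IP replicate 2 or WT IP replicate 1, none of them passed. With the peak sums as library sizes in place of TMM, 1 region in protein-coding genes was lower in WT and none was higher, and the median over all regions moved from 0.03 to -0.22. Over all regions, 41 were higher and 41 lower with TMM, and 28 higher and 55 lower with the peak sums.

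Of the 5 regions listed in both IPs of 1 genotype and neither of the other, SGPL1 and RBFOX3 had the most counts. How many of all 1373 regions show this pattern was not counted, so the 5 cannot be called particular to protein-coding genes. SGPL1 encodes sphingosine-1-phosphate lyase, and its intronic region is the one with 17 nt of mitochondrial methionine tRNA. It had 124 and 98 counts in the WT IPs, which are 1896 and 2026 CPM, and no peak in the WT inputs, the KO IPs or KO input replicate 1. KO input replicate 2 listed 12 counts (42.0 CPM). A peak of 10 counts would have been 187 and 192 CPM in the KO IPs. SGPL1 was chosen for this pattern, so no test of it is given. The JAK2 intron with 24 nt of the same tRNA was listed in WT IP replicate 1 alone, with 30 counts.

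NAA50, which encodes an N-terminal acetyltransferase, had 14 and 10 counts in the WT IPs, none in the KO IPs and 10 in KO input replicate 2. These counts were close to the listing minimum, and its letters matched none of the searched sequences. DGKI, with 16 nt of mitochondrial alanine tRNA, was listed in all 4 IPs and no input, with 199 and 289 CPM in WT and 187 and 269 CPM in KO. WT and KO IPs did not differ past the threshold for DGKI (log2 0.33 ± 0.38, edgeR adjusted p = 0.568).

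RBFOX3, which encodes the neuronal splicing factor NeuN, has an intronic region with the letters of the 3′ end of an alanine tRNA. It was listed in both inputs of both genotypes, with 1157 and 1244 CPM in WT and 1306 and 1261 CPM in KO, and in the KO IPs with 805 and 1036 CPM. No peak was listed in the WT IPs, where 10 counts were worth 153 and 207 CPM. ENSG00000271793 (SNORD50A) was listed in all inputs and in the KO IPs with 16 and 18 counts. The 5′ UTR of ABTB3 was listed in the KO IPs alone with 12 counts in each. These regions too were chosen for the pattern and are given without a test.

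The comparison of the inputs asks what differed before the pulldown. Of 400 regions 35.2% passed, and of 15 in protein-coding genes 6 did, 4 higher in WT and 2 lower. KLHL13, with the letters of RNY3, had 234 and 235 CPM in the WT inputs and 51.4 and 59.5 CPM in the KO inputs (log2 2.10 ± 0.22, edgeR adjusted p = 0.0149). In KO input replicate 2 its peak also overlapped a Y RNA gene. PARD3, a cell polarity protein, had 202 and 255 CPM in WT and 555 and 585 CPM in KO in an intronic region of 2 nt (log2 -1.27 ± 0.21, edgeR adjusted p = 0.0232). SNRPB, a core protein of spliceosomal particles, had 329 and 275 CPM in WT and 509 and 693 CPM in KO at SNORD119 (log2 -0.94 ± 0.24, edgeR adjusted p = 0.0452). Neither KLHL13, PARD3 nor SNRPB had a peak in an IP. The adaptor-matching regions in NUTF2, ENSG00000289809 and DSC2 were higher in the WT inputs by 0.75, 0.45 and 0.43 on the log2 scale (edgeR adjusted p = 0.0229, 0.0452 and 0.0452). Leaving out KO input replicate 1, KO input replicate 2 or WT input replicate 2 left no region of the 400 or more tested past the threshold, and leaving out WT input replicate 1 left 3 in protein-coding genes. DESeq2 called 2.

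The interaction asks whether the pulldown changed a region differently in the genotypes. Of 186 regions 30.1% passed, and of 7 in protein-coding genes 1 did. NUTF2 was depleted more strongly in WT, by -1.13 ± 0.34 on the log2 scale (edgeR adjusted p = 0.0404). It did not pass when the genome lists were fitted alone, with missing libraries at 0, or without KO input replicate 1, KO input replicate 2, KO IP replicate 2 or WT input replicate 2. The 5 regions at RefSeq snoRNA genes did not carry these results: without them the calls were 3, 5, 1, 5 and 1 in the order WT IP against input, KO IP against input, IPs, inputs and interaction.

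**Figure D5:**
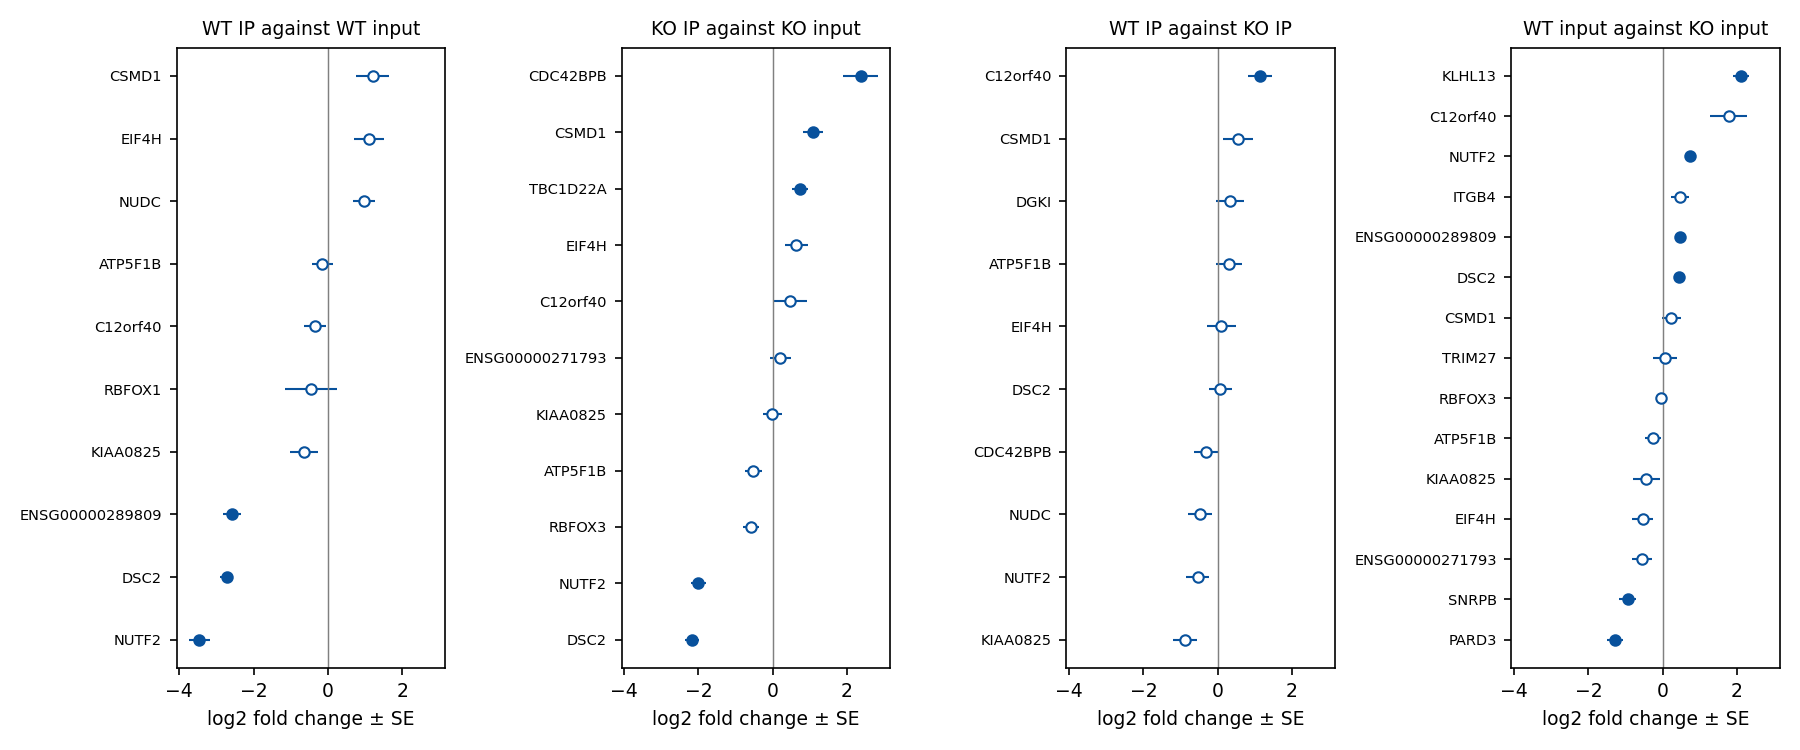
Log2 fold change ± SE (horizontal axes) of each tested region in protein-coding genes in 4 comparisons, first group relative to the second; filled points have an edgeR adjusted p below 0.05. NUTF2 and DSC2 lie below -2 in both pulldowns, and CDC42BPB is the highest point in the KO pulldown.

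The study's criteria for keeping peaks against the input were applied to the peaks of IP replicate 1. Its methods give a peak in both replicates, and either a ratio to the input above 1.5 or no peak in the input. Its results add a score above 10, and asking for more than 10 counts in both IP replicates was a choice made here. Ratios of mean IP to mean input CPM were a choice made here too, and so was taking the mean input over those inputs that listed a peak. CDC42BPB and MYOM2 in WT, and NUDC and AKAP6 in KO, were listed in 1 input, so their ratios below rest on that input alone. Of 27 peaks in WT, 6 were kept, and of 18 in KO, 7. The other peaks of the lists were not put through these criteria, so no share over all peaks stands beside these counts. CDC42BPB, EIF4H and CSMD1 were kept in both genotypes, with ratios of 6.25, 2.29 and 2.49 in WT and 5.58, 1.67 and 2.28 in KO. WT cells also kept SGPL1 and DGKI, without an input peak, and MYOM2 (ratio 4.00). KO cells also kept ABTB3, without an input peak, NUDC (ratio 7.37), AKAP6 (5.40) and TBC1D22A (1.78). For ALKBH1-dependent peaks the study further asked for absence from the input and the KO. Of the 6 WT peaks, 1 (SGPL1) had no peak in a KO IP, and none was without a peak in every input and every KO library, since KO input replicate 2 listed SGPL1. Requiring more than 20 counts kept 3 in WT and 2 in KO. DGKI was not kept in KO, where its peak in replicate 1 held 10 counts. NUDC was not kept in WT, where its peak in IP replicate 2 held 10 counts.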

How the data were processed

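For 8 libraries the authors processed reads with the iCount pipeline, removed PCR duplicates by molecular identifiers, mapped with STAR to tRNA and rRNA and then to GRCh38, kept unique hits and called peaks with Paraclu in each library. Uniqueness can shift reads between near-identical loci. The deposited values are counts of unique cDNAs per peak, in 2 lists per library, not normalized. The GRCh38 FASTA used here held 25 of the 26 sequence names of these lists, and no peak ran past a chromosome end.

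Peaks overlapping by 1 nt on a strand were merged. A peak took the first class it overlapped of CDS, 3′ UTR, 5′ UTR and intron. edgeR 4.0.16 in R 4.3.3 (TMM, quasi-likelihood, only the compared groups) was fitted to all regions listed in every library of a comparison and was tested on simulated data. The SE is the log2 fold change divided by the square root of F. Shares were compared by exact permutation tests with scipy 1.17.1. tRNA (443 genes, either strand), RNA, adaptor and genome letters were searched by exact match, at least 20 nt for mitochondrial DNA and rRNA; promoters are of RefSeq. Where several matched, the order was runs, mitochondrial tRNA, mitochondrial DNA, cytosolic tRNA, small RNA, rRNA, adaptor. DESeq2 1.42.0 was an alternative. By the methods, input was set aside from the ARP-treated RNA before the beads, so input and IP of a number were taken as pairs within a genotype. Over 186 regions their deviations correlated by 0.49 in WT and 0.23 in KO. Between genotypes, where a number is no pairing, the values were 0.17 (inputs), 0.31 (IPs), 0.44 (WT input and KO IP) and -0.05 (WT IP and KO input). The correlations therefore do not establish the pairing, which rests on the methods. The fit without the pairing is the one reported, and the replicate block stands beside it where a call changed.

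Named regions were those listed in all 8 libraries, those past the threshold (at most 10 per comparison), those listed in both IPs of 1 genotype alone, the 3 highest per compartment and, for the gene lists, examples. Regions and lists were chosen with earlier results of these data known. The spike-in was not analysed here. Some regions counted here are not reported by name.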

Additional observations from a re-analysis of the deposited data

Results flagged for a closer look

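The intronic region of NUTF2 differed between the genotypes in its change on pulldown, with an interaction of -1.13 on the log2 scale (WT minus KO, edgeR adjusted p = 0.0404). Over the alternatives that could be fitted it lay between -1.51 and -0.84, with adjusted p between 0.00297 and 0.153, and 11 of 17 kept it past the threshold. Every IP was below every input in both genotypes. Its letters match 18 nt of the read 1 adaptor, and what part this has in the difference was not tested.

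The share of counts in peaks of at most 5 nt moved by 22.9 percentage points from WT input to WT IP and by -11.1 percentage points from KO input to KO IP. Both WT IPs lay above both WT inputs and both KO IPs below both KO inputs, and this difference between the genotypes was not tested. The KO direction depended on how CDC42BPB was counted, whose peak was 3 nt wide in the KO inputs and 31 and 6 nt in the KO IPs: counted as narrow throughout, it put the KO IPs at 37.9% and 41.5% against 38.2% and 37.8%. Left out, it gave 29.96% and 31.7% for KO IP against 37.8% and 36.8% for KO input. Without SGPL1 the WT IPs had 39.3%. NUTF2, with peaks of 9 or 10 nt, held 51.1% and 54.7% of these counts in the WT inputs and far less in the WT IPs. The narrow share was not computed without NUTF2.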

How the results depend on the processing

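Changes in the number of regions in protein-coding genes past the threshold are given first. With uncalled libraries at 0 the calls were 17 (WT IP against input), 24 (KO IP against input), 5 (IPs), 17 (inputs) and 2 (interaction), and at 1 below the lowest listed value 11, 15, 3, 15 and 8, since regions with missing peaks then entered. In protein-coding genes 30, 39, 22, 51 and 46 regions were then tested. Over all regions the calls at 0 were 333 of 610, 522 of 754, 199 of 467, 356 of 822 and 89 of 857. At 1 below the lowest listed value they were 262, 376, 151, 231 and 144 of the same totals. DESeq2 gave 3 in the KO pulldown, 0 for the IPs (1 at an unadjusted p under 0.05) and 2 for the inputs. The genome lists alone gave 2 for the IPs and 0 for the interaction (1 at an unadjusted p under 0.05 by edgeR). The replicate block gave 6 in the WT pulldown, 3 of them higher in the IP, and 3 for the IPs, against 136 of 243 and 116 of 220 over all regions. It moved no other count by over 1.5 times, and a replicate block within genotype, added later, left 1 for the interaction (NUTF2). Between genotypes a number is only a number, and the block there is no pairing. Leaving out 1 library at a time gave 3 to 7 calls in the WT pulldown, 4 to 7 in the KO pulldown, 0 to 1 for the IPs, 0 to 3 for the inputs and 0 to 1 for the interaction; where 1 library was left in a group, it was assumed to vary like the others. Where edgeR called none of the inputs, 4 to 9 in protein-coding genes had an unadjusted p under 0.05. No called region changed direction under an alternative.

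The cause of these shifts in shares was not tested. Without the adaptor set, added after the data were seen, shares of all counts were 0.794% (WT input), 0.910% (WT IP), 0.856% (KO input) and 0.769% (KO IP). With CDC42BPB counted as narrow, also added then, narrow peaks held 39.7% in KO IP, and without it 37.3% in KO input and 30.8% in KO IP. With scores above 20, shares of all counts were 2.67%, 0.899% and 0.816% in WT input, WT IP and KO IP, introns held 100% in WT input and 79.5% in KO IP, narrow peaks 26.3% in KO IP, and the study's criteria kept 3 and 2 peaks. Of the genome lists alone the shares were 12.1% (WT input), 2.79% (WT IP), 8.30% (KO input) and 4.33% (KO IP). Without the largest region of each library, introns held 97.1% (WT input), 91.0% (KO input) and 69.9% (KO IP). As a share of peaks, narrow peaks were 35.8% (WT input), 49.9% (KO input) and 34.2% (KO IP). Without SGPL1, added after the data were seen, they were 39.3% of counts in WT IP. With 1 replicate left out of the study's criteria, 7 to 16 peaks were kept in WT and 9 to 11 in KO. Peaks under 10 counts, not listed, limit every absence.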
